A study of Mus musculus with 16 samples.

Results

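Divergent promoters are stretches of DNA from which a pair of genes is transcribed in opposite directions. The pairs described here are autosomal protein-coding genes of the GENCODE M21 annotation (build GRCm38/mm10) that lie on opposite strands, point away from each other, do not overlap, and have their transcription start sites (TSSs) 0 to 1000 bp apart. The rule found 734 pairs, which hold 1448 of the 20807 autosomal protein-coding genes (6.96%), and 20 of those genes belong to 2 pairs. The TSSs of a pair were 1 to 987 bp apart, with a median of 128 bp. Of the pairs, 306 had TSSs at most 100 bp apart, 296 had them over 100 and up to 300 bp apart, and 132 had them over 300 bp apart. A pair is written with the gene of the minus strand first, and each of its genes is called a side.

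RNA polymerase II (Pol II) that starts at a divergent promoter runs to the left on one strand and to the right on the other, and both genes draw on the same nucleosome-poor DNA, which is often rich in CG dinucleotides. Many pairs of this kind encode proteins needed in most cells, such as histones, mitochondrial proteins and DNA repair factors. Histone H2B is monoubiquitylated (H2Bub1) by the RNF20/RNF40 ligase in the bodies of transcribed genes, and the mark is removed by a deubiquitylation module in which ATXN7L3 is the adaptor of the ubiquitin proteases.

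The question was where Pol II and H2Bub1 lie when this adaptor is lost. ChIP-seq, the sequencing of immunoprecipitated chromatin, used the anti-RPB1 antibody PB-7G5, which binds the largest Pol II subunit, and an anti-H2Bub1 antibody of MediMabs. Wild-type cells (WT, Atxn7l3+/+) and cells without the adaptor (Atxn7l3-/-, KO in the plots) of the strain DBA/2 x C57BL/6 were used in 2 cell types. Mouse embryonic stem cells (mESCs), derived from blastocysts, were grown with LIF, PD0325901 (1 µM) and CH99021 (3 µM) in 15% foetal calf serum, and mouse embryonic fibroblasts (MEFs) came from E10.5 embryos and grew in 10% serum. The heads and guts of the embryos had been removed, so the cultures hold the cells that grow from the rest of the embryo. All buffers held 10 mM N-ethylmaleimide, which blocks deubiquitylation during the preparation. There was 1 library per antibody, genotype and cell type, so the differences below could not be set against replicates and carry no p-values. The 95% intervals, in brackets, cover counting error over pairs or genes only, and the read depth of the libraries is unknown.

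The Pol II lists held 17074 peaks in WT mESCs, 11963 in Atxn7l3-/- mESCs, 45870 in WT MEFs and 32232 in Atxn7l3-/- MEFs. The H2Bub1 lists held 40979, 48952, 19725 and 28856 peaks in the same order. Promoters of 10 pluripotency genes had a Pol II peak in 9 and 8 cases in WT and Atxn7l3-/- mESCs and in 1 and 3 cases in the MEFs. Promoters of 12 fibroblast genes had one in 1 and 1 cases in mESCs and in 12 and 11 in MEFs, so the cell types matched their labels. In the paper's targeting construct, LoxP recombination sites lay around exon 2 to exon 12 of Atxn7l3, with a cassette in intron 2. By the numbering of the 13-exon GENCODE transcript, exon 2 to exon 12 is chr11:102291898-102295059. H2Bub1 peaks covered 100% of this span in WT mESCs and 13.0% in Atxn7l3-/- mESCs, and 21.6% and 19.6% in WT and Atxn7l3-/- MEFs. Pol II peaks covered 20.7%, 11.9%, 19.3% and 10.9% in the same order. From exon 3 to exon 12, H2Bub1 peaks covered 100%, 0.401%, 9.65% and 7.43%, and Pol II peaks 23.9%, 13.7%, 7.03% and 0%. The whole gene body was covered by H2Bub1 over 100%, 62.5%, 22.0% and 65.3%, and its promoter, outside the span, had a Pol II peak in all 4 libraries. Peak edges are coarse, and in MEFs these values do not check the label.

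The DNA between the TSSs is printed for 9 pairs, because these gaps carry the examples that the Pol II and H2Bub1 values turn on: a histone pair with the highest Pol II fold of WT mESCs among histone pairs, textbook pairs with and without Pol II, the pair of the H2B ligase gene Rnf40, the RNA processing pair Srsf7/Ttc39d, and pairs whose gap holds a palindrome matched on both strands. All are plus-strand sequences of the GRCm38 RefSeq genome, from the base after the minus-strand TSS to the base before the plus-strand TSS, in lower case. Capitals mark matches, on either strand, to 9 short motifs.
Hist1h2ag/Hist1h2bj, chr13:22042945-22043213: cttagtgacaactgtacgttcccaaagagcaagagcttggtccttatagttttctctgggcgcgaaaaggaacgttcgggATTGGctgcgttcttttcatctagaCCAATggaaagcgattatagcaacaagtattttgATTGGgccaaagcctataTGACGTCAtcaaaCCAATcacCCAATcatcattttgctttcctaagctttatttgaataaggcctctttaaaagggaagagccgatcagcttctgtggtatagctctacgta
Mrps12/Sars2, chr7:28741821-28741991: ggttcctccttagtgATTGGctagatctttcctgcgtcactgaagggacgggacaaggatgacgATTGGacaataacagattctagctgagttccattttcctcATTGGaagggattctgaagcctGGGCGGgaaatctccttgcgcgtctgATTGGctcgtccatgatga
Ccdc189/Rnf40, chr7:127588596-127588766: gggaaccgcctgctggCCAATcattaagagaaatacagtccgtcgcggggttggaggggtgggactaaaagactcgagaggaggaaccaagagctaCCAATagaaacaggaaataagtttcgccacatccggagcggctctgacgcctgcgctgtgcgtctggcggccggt
Srsf7/Ttc39d, chr17:80207308-80207459: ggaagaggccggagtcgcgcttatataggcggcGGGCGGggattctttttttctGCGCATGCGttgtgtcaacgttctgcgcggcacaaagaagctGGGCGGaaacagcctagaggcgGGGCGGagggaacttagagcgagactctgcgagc
Psmb1/Tbp, chr17:15499752-15499887: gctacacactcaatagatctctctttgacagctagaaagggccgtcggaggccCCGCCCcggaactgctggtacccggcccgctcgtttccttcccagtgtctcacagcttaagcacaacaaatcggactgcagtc
Hadha/Hadhb, chr5:30155163-30155247: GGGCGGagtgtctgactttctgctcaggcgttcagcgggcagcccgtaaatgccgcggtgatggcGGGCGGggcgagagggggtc
Col4a4/Col4a3, chr1:82586850-82586920: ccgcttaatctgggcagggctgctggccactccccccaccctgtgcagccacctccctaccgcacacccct
Ska3/Mrpl57, chr14:57826186-57826233: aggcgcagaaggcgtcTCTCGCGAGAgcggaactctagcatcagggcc
Cct5/Fam173b, chr15:31601805-31601851: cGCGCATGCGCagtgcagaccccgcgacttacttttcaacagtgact

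The motifs, searched on both strands, were the CCAAT box (CCAAT), the GC box (GGGCGG), the ETS motif (CCGGAAG), the NRF1 motif (GCGCATGCG), the YY1 motif (AAGATGGCG), the cAMP response element (TGACGTCA), the ZBTB33-type motif (TCTCGCGAG), the E-box (CACGTG) and the TATA box (TATAAA). Matches of 1 motif on opposite strands may overlap, as in the palindromes of Ska3/Mrpl57 and Cct5/Fam173b. The histone gap held 5 CCAAT boxes and 1 cAMP response element, and the gap of Mrps12/Sars2 held 4 CCAAT boxes and 1 GC box. The gap of Col4a4/Col4a3 held none of the 9 motifs, which says only that these letters are not in this window.

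The divergent promoters had more G, C and CG dinucleotides than other promoters. In the 300 bp around the midpoint of a pair the median GC content was 62.7% [61.7 to 63.3], against 55.3% [55.0 to 55.3] over the 300 bp promoters of 20802 autosomal genes. The median ratio of observed to expected CG dinucleotides was 0.851 against 0.540, and 81.2% [78.2 to 84.0] of the divergent promoters had a GC content of at least 50% with a ratio of at least 0.6, against 42.5%. Motif shares were higher too, with an exception for the TATA box. GC boxes were in 67.8% of the divergent promoters and 43.7% of all promoters, and CCAAT boxes in 44.6% and 38.6%. ETS motifs were in 28.3% against 11%, YY1 motifs in 5.45% against 1.70%, ZBTB33-type motifs in 3.27% against 0.885%, NRF1 motifs in 4.77% against 2.20% and cAMP response elements in 4.50% against 2.43%. The E-box share was 10.9% against 7.82%, while TATA boxes were in 4.50% of the divergent promoters and 12.7% of all promoters. The shares were not corrected for GC content, which differed as given.

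Pol II lay on most divergent promoters of MEFs and on most of those of mESCs. A Pol II peak in the pair window, which runs from 1000 bp inside one gene to 1000 bp inside the other, was found at 496 pairs in WT mESCs (67.6% [64.1 to 71.0]) and at 450 in Atxn7l3-/- mESCs (61.3% [57.7 to 64.8]). In MEFs the counts were 690 (94.0% [92.0 to 95.6]) in WT and 692 (94.3% [92.3 to 95.8]) in Atxn7l3-/-. The lower share of Atxn7l3-/- mESCs turned around when the longer WT list was cut to the same number of peaks, which left 59.0% of pairs with a peak in WT. In MEFs the lists gave nearly the same share with unequal numbers of peaks.

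A peak reached into the first 1000 bp of both genes at 378, 324, 661 and 641 pairs in WT mESCs, Atxn7l3-/- mESCs, WT MEFs and Atxn7l3-/- MEFs. It reached into 1 gene only at 117, 125, 29 and 51 pairs, and neither gene had one at 239, 285, 44 and 42 pairs. Of the pairs with Pol II on both sides, 94.7%, 94.1%, 98.2% and 97.2% had a single peak that spanned both TSSs. The Pol II calls of the 2 sides were therefore mostly the same peak counted for both genes. The fragments were sheared to 200 to 700 bp, against a median TSS distance of 128 bp.

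Pairs with closer TSSs had higher shares of calls on both sides. With TSSs at most 100 bp apart, both sides had Pol II at 63.7% [58.1 to 69.1] of pairs in WT mESCs, 53.9% in Atxn7l3-/- mESCs, 95.8% in WT MEFs and 96.1% in Atxn7l3-/- MEFs. With TSSs over 300 bp apart the shares were 28.8% [21.2 to 37.3], 20.5%, 75% and 67.4%. Just inside the limit of the rule, 1, 0, 6 and 5 of the 10 pairs with TSSs over 900 bp apart had Pol II on both sides, and just outside it 0, 1, 5 and 5 of the 11 pairs with TSSs over 1000 and up to 1100 bp apart.

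The strongest Pol II summit of a pair mostly lay inside one of the genes. In WT mESCs it was in the minus-strand gene at 193 pairs, in the plus-strand gene at 209 and between the TSSs at 86. In WT MEFs these counts were 304, 306 and 68, so neither strand prevailed. The summit lay a median of 79.0, 69.0, 78.0 and 82.0 bp inside the gene in WT mESCs, Atxn7l3-/- mESCs, WT MEFs and Atxn7l3-/- MEFs. Over all pairs, Pol II coverage was highest at the midpoint, at 55.6%, 48.5%, 90.6% and 89.4% of pairs in the 4 libraries. In WT mESCs it was down to 6.13% of pairs at 1000 bp from the midpoint towards the minus-strand gene. With TSSs over 300 bp apart the midpoints were covered at 38.6%, 28.8%, 75.8% and 72.7%. The highest positions had 42.4%, 34.8%, 79.5% and 76.5% towards the minus-strand gene, and 40.9%, 28.0%, 79.5% and 77.3% towards the plus-strand gene.

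**Figure D1:**
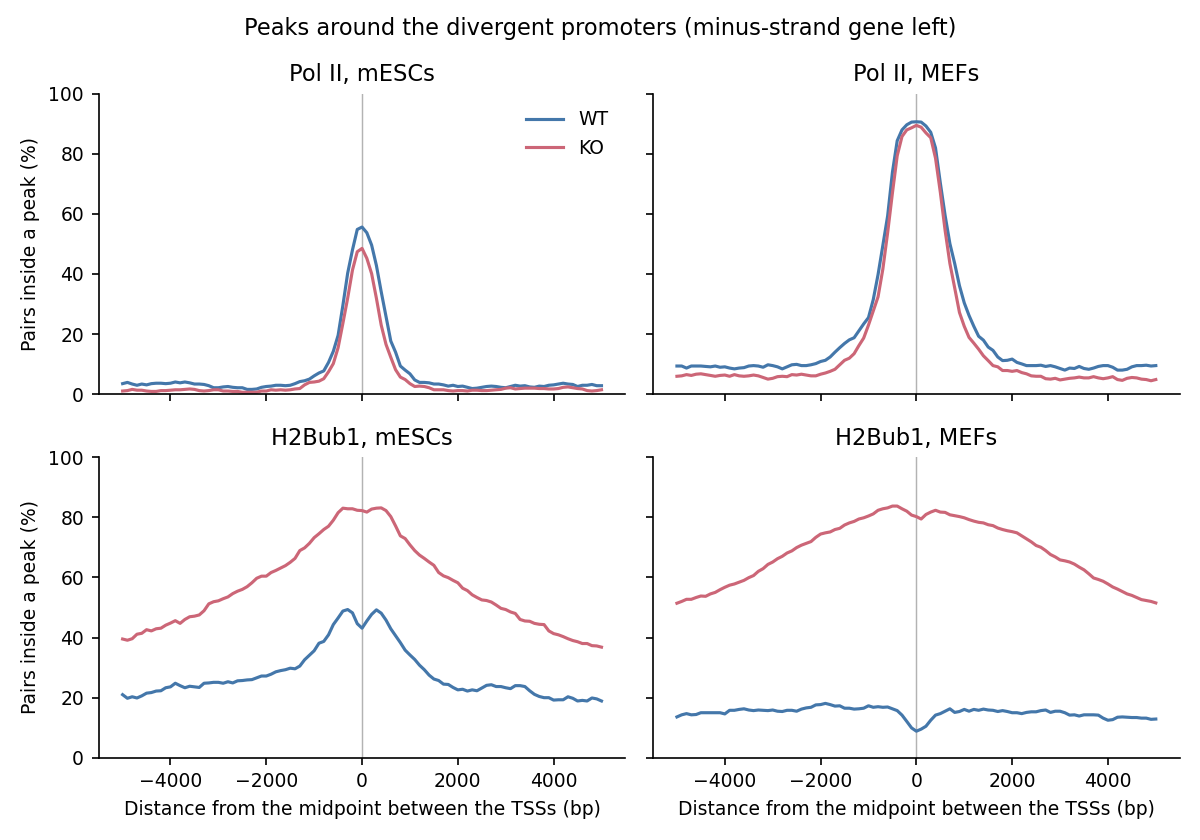
Share of the 734 pairs (%) whose position lies inside a Pol II or an H2Bub1 peak, against the distance from the midpoint between the TSSs (bp; negative values lie towards the minus-strand gene), for WT and KO (Atxn7l3-/-) libraries of mESCs and MEFs. Pol II forms a narrow peak at the midpoint (55.6% in WT mESCs, 90.6% in WT MEFs), and H2Bub1 coverage is higher in both KO libraries (82.2% against 43.1% at the midpoint in mESCs, 80.2% against 8.86% in MEFs).

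The fold of the strongest Pol II peak of a pair is the deposited enrichment over the local background of that library. Its median was 4.46 [4.28 to 4.67] in WT mESCs, 4.53 [4.34 to 4.71] in Atxn7l3-/- mESCs, 13.7 [13.2 to 14.5] in WT MEFs and 12.2 [11.5 to 13.0] in Atxn7l3-/- MEFs. Over the 394 pairs bound in both genotypes of mESCs, the log2 ratio of Atxn7l3-/- to WT fold had a median of -0.01 [-0.07 to 0.05], and over the 684 such pairs of MEFs one of -0.20 [-0.24 to -0.15]. Each fold is relative to its own library, so these ratios give no absolute change.

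Pol II sat on both genes of many pairs in fibroblasts that had none in stem cells. In WT, 372 pairs had Pol II on both sides in both cell types, 185 had none in mESCs and both sides in MEFs, and 5 had both sides in mESCs and none in MEFs. Those 5, named after their values were seen, were Hist1h2ba/Hist1h2aa (testis-type histones), Sncg/Mmrn2, Il11/Tmem190, Lsr/Fam187b and Nrg4/Tmem266. The Pol II fold of these pairs in WT mESCs was 4.12, 5.01, 3.88, 3.11 and 2.88 in that order. The WT MEF list held more peaks than the WT mESC list, and the part of that difference in these counts was not tested. Both sides had Pol II in all 4 libraries at 265 pairs, and neither side in any library at 28.

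GC content and the CG ratio also differed between the pairs always bound and never bound. The 265 pairs had a median GC content of 65.7% [64.7 to 66.7] and a CG ratio of 0.926, and the 28 pairs had 52.3% [49.3 to 58.7] and 0.462. GC boxes were in 70.9% [65.1 to 76.3] and 28.6% [13.2 to 48.7], and ETS motifs in 32.5% [26.9 to 38.5] and 7.14% [0.877 to 23.5]. The intervals of the other motifs overlapped, with ZBTB33-type motifs in 6.79% and 7.14% [0.877 to 23.5] and CCAAT boxes in 37.4% [31.5 to 43.5] and 35.7% [18.6 to 55.9]. E-boxes were in 13.6% of the 265 and in 0 of the 28, which allows a share of up to 12.3%.

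Between WT and Atxn7l3-/- cells, the Pol II calls of the 2 sides mostly had the same state, and as given above most such calls are 1 shared peak. Of the 1468 sides in mESCs, 655 had a call in both genotypes, 218 in WT only (14.9% [13.1 to 16.8], against 8.07% of all autosomal genes), 118 in Atxn7l3-/- only (8.04% [6.70 to 9.55], against 4.93%) and 477 in neither. Of those in MEFs, 1315 had it in both, 36 in WT only (2.45%, against 4.38% of all genes), 18 in Atxn7l3-/- only (1.23%, against 1.46%) and 99 in neither. A Pol II call in WT was found at 59.5% of paired genes and 33.6% of all genes in mESCs, and at 1332 of 1448 and 11336 of 20807 in MEFs. The shares above were not adjusted for it. Over all genes, 1679 of the 6990 WT calls of mESCs and 911 of the 11336 of MEFs were WT only. At paired sides the 218 WT-only calls of mESCs stand beside 655 kept ones, and the 36 of MEFs beside 1315.

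Both sides had the same Pol II state at 535 pairs in mESCs (72.9% [69.5 to 76.1]) and at 676 in MEFs (92.1% [89.9 to 93.9]). The same share over 403 divergent pairs with TSSs over 1000 and up to 5000 bp apart was 57.1% and 63.0%. Over 596 same-strand neighbours with up to 1000 bp between them it was 49.8% and 70.3%, and over 578 convergent neighbours 46.2% and 63.1%. In mESCs, 60 of the 158 pairs with a WT-only side had it on both sides (38.0% [30.4 to 46.0]), against 6.90% of the wider divergent pairs, 6.62% of same-strand and 9.03% of convergent neighbours. Most calls on both sides of a divergent pair are a single peak over both TSSs, which changes for both genes by construction. The TSSs of the neighbours lie farther apart, so none of these shares compares like with like. For Atxn7l3-/- only, 26 of 92 pairs had it on both sides (28.3% [19.4 to 38.6]). With equal numbers of peaks the pairs with a WT-only call on both sides made up 5.99% of all pairs, and those with an Atxn7l3-/- only call 5.72%.

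Opposite Pol II changes, a call in WT only on one side and in Atxn7l3-/- only on the other, were found at 4 pairs in mESCs and at 0 in MEFs. Split by which gene had the WT-only call, neighbours in mESCs had them at 1 and 3 of 403 wider divergent pairs. Same-strand neighbours had 2 and 9 of 596, and convergent ones 8 and 5 of 578. A peak that spans both TSSs cannot give opposite calls, which lowers the count of close pairs. The 4 divergent pairs, named after their values were seen, were Chpf/Tmem198, Zfp654/Cggbp1, Mms19/Ubtd1 and Zdhhc6/Vti1a. At Chpf/Tmem198 (Chpf encodes a chondroitin-polymerizing factor) the fold was 2.90 in WT and 4.28 in Atxn7l3-/- mESCs, on different sides. All 4 pairs had Pol II on both sides in both MEF libraries, as did 90.1% of all divergent pairs in WT and 87.3% in Atxn7l3-/- MEFs. Their mESC folds of 2.02 to 4.28 were under the medians over all pairs.

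Pairs that lost or gained the whole Pol II peak included genes of many roles. The largest WT folds without any Atxn7l3-/- peak in mESCs were 5.44 at Pole3/4933430I17Rik (Pole3 encodes a subunit of DNA polymerase epsilon), 5.30 at Brix1/Rad1 (ribosome biogenesis and a DNA damage checkpoint clamp) and 5.30 at Ttc13/Arv1. The largest Atxn7l3-/- folds without a WT peak were 5.80 at Adam9/Tm2d2, 5.52 at Smpd2/Ppil6 and 5.52 at Arcn1/Ift46 (a coatomer subunit and a ciliary transport protein). All 6 pairs had a peak in both MEF libraries, with folds from 6.04 to 25.3, where 94.0% and 94.3% of all pairs had one. The mESC values of 5.30 to 5.80 stand beside medians over all bound pairs of 4.46 in WT and 4.53 in Atxn7l3-/-.

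In MEFs both sides lost their call at 4 pairs, Sobp/9030612E09Rik, Zfyve28/Cfap99, Wdr54/1700003E16Rik and Odf3l1/Cspg4, with WT folds of 10.3, 3.70, 3.99 and 5.52. Cspg4 encodes NG2, a proteoglycan of pericytes and glial progenitors. Both sides gained one at 5 pairs, Lrrc63/Lcp1, Plgrkt/Cd274, Fbxo44/Fbxo2, Lsr/Fam187b and Pex11a/Wdr93, with Atxn7l3-/- folds of 3.55, 3.02, 5.36, 7.14 and 3.10. Lcp1 encodes L-plastin, an actin-bundling protein of blood cells, and Cd274 encodes PD-L1. These 9 pairs were named after their values were seen.

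**Figure D2:**
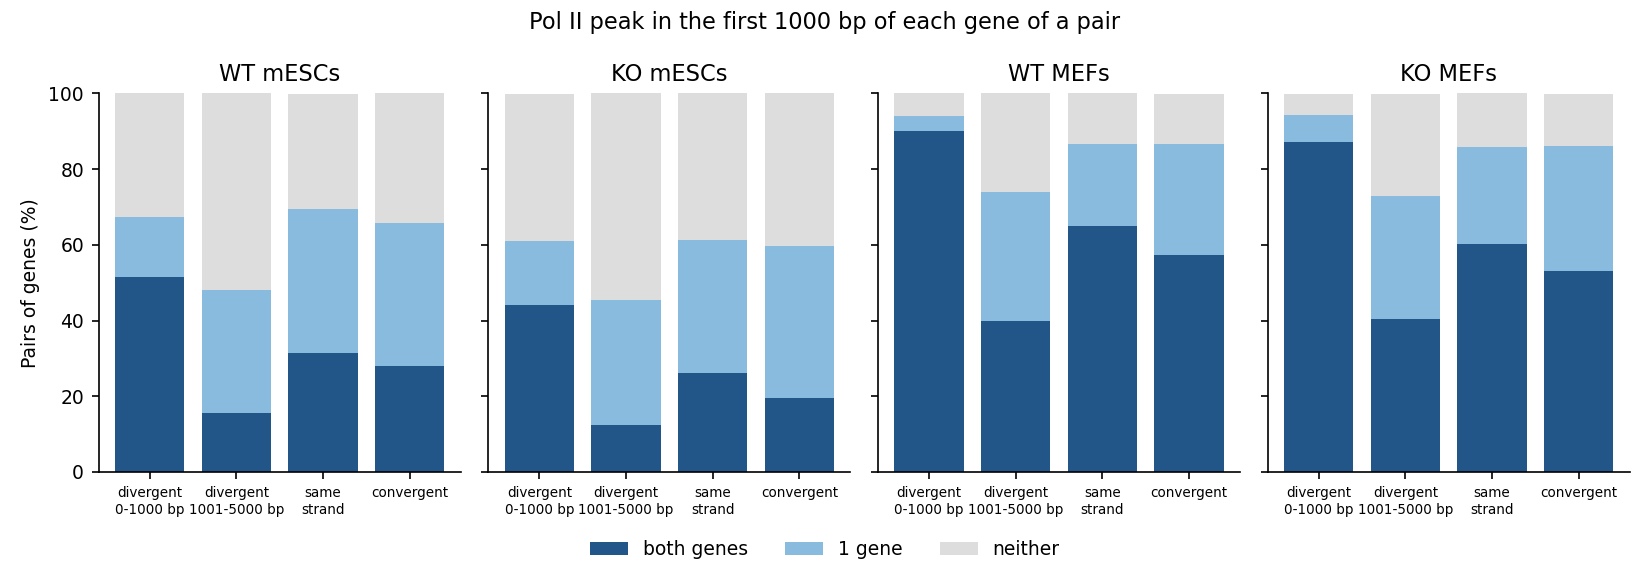
Share of gene pairs (%, stacked bars) with a Pol II peak in the first 1000 bp of both genes, of 1 gene and of neither, for the divergent pairs, wider divergent pairs, same-strand neighbours and convergent neighbours, 1 panel per Pol II library. Both genes of the divergent pairs were bound at 51.5%, 44.1%, 90.1% and 87.3% in WT mESCs, KO mESCs, WT MEFs and KO MEFs, against 31.5%, 26.0%, 65.1% and 60.1% of same-strand neighbours.

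Pairs with a separate Pol II summit on each side in both genotypes, the only ones whose folds can be read side by side, numbered 6 in mESCs and 7 in MEFs. Spearman's rho of the log2 ratios of the 2 sides was -0.12 over the 6 pairs, of which 2 share the gene Mocs3, and 0.50 over the 7. The ratios had the same sign at 2 of 6 and 5 of 7 pairs. These pairs are too few to read a relation from.

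H2Bub1 lay across the divergent promoter itself at many more pairs in Atxn7l3-/- cells. A single H2Bub1 peak covered both TSSs and the gap between them at 302 pairs in WT mESCs (41.1% [37.6 to 44.8]), 592 in Atxn7l3-/- mESCs (80.7% [77.6 to 83.5]), 58 in WT MEFs (7.90% [6.05 to 10.1]) and 575 in Atxn7l3-/- MEFs (78.3% [75.2 to 81.3]). Of the pairs with H2Bub1 in both bodies, a single peak covered both TSSs at 59.6%, 91.4%, 31.7% and 95.4%. With TSSs over 300 bp apart the shares of pairs were 30.3%, 65.2%, 5.30% and 61.4%, so the longer gaps were bridged as well. At a stricter -log10 q, 3 or more, the shares were 21.9%, 74.3% and 0.545% in WT mESCs, Atxn7l3-/- mESCs and WT MEFs.

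Over all pairs H2Bub1 at the midpoint was lower than the highest value towards either gene in each library, by the least in Atxn7l3-/- mESCs. That highest value was picked among positions up to 5000 bp away, and this choice favours a dip. In WT mESCs 43.1% of midpoints were inside a peak, against 49.3% at 300 bp on the minus-strand side. In Atxn7l3-/- mESCs the values were 82.2% and 83.0% at 400 bp. At 500 bp, Atxn7l3-/- mESCs had 81.5% towards the minus-strand gene and 82.2% towards the plus-strand gene, so no dip was seen there. At their pairs with TSSs at most 100 bp apart the midpoint had 90.2%, and the highest side values were 90.2% and 88.9%. In WT MEFs the midpoint and highest values were 8.86% and 18.1% at 1900 bp, and in Atxn7l3-/- MEFs 80.2% and 83.7% at 500 bp. Towards the minus-strand gene the dip was deeper in all 4 libraries at the pairs with TSSs over 300 bp apart. Their midpoints were covered at 32.6%, 65.9%, 8.33% and 62.1% of pairs, against 47.0%, 74.2%, 22.0% and 74.2% at the highest point of the minus-strand side and 40.9%, 71.2%, 15.2% and 72.7% at that of the plus-strand side. In WT MEFs the dip towards the plus-strand gene was no deeper than over all pairs, whose highest value there was 16.3%. The median width of all H2Bub1 peaks was 1360 bp in Atxn7l3-/- against 957 bp in WT mESCs, and 2770 bp against 1310 bp in MEFs, and its part in the dip was not tested.

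H2Bub1 at both TSSs had lower shares among neighbours of other kinds. Both TSSs lay inside a peak at 5.46%, 26.1%, 0% and 23.8% of the wider divergent pairs, in WT mESCs, Atxn7l3-/- mESCs, WT MEFs and Atxn7l3-/- MEFs. At same-strand neighbours the shares were 8.05%, 35.6%, 0.503% and 27.5%, and at convergent neighbours 9.86%, 32.4%, 0.346% and 25.1%. Their TSSs lie farther apart and fewer of these neighbours have Pol II on both genes (15.6% to 31.5% in WT mESCs, against 51.5%). Among single genes with Pol II, the TSS was inside an H2Bub1 peak at 61.1%, 93.7%, 9.61% and 88.8% of genes in the pairs and at 41.5%, 79.7%, 6.08% and 65.6% of genes in no pair. A paired TSS can lie in an H2Bub1 peak of its partner and can pass the Pol II restriction through a shared peak. These shares therefore do not compare like with like.

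The bodies of paired genes had higher median H2Bub1 coverage than genes at large in 3 of the 4 libraries. The median covered share of a body was 8.96% [7.85 to 10.6] in WT mESCs, 29.8% [26.6 to 32.6] in Atxn7l3-/- mESCs, 0% in WT MEFs and 40.4% [37.0 to 42.7] in Atxn7l3-/- MEFs. Over all autosomal genes the medians were 1.31%, 6.66%, 0% and 6.37%. At a -log10 q of 3 or more the paired medians were 0% in WT mESCs and 12.9% in Atxn7l3-/- mESCs, and over the first 2000 bp of the body they were 23.9% and 100%, with 100% in Atxn7l3-/- MEFs. Restricted to genes with Pol II, they were 14.2%, 35.5%, 0.125% and 43.6% for genes in the pairs and 18.7%, 43.0%, 1.56% and 52.0% for genes in no pair. A paired gene can pass this restriction through a peak that it shares with its partner, so the restricted medians do not compare like with like. H2Bub1 was in both bodies at 507, 648, 183 and 603 pairs.

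The 2 bodies of a pair often differed in coverage, and the shorter body had the higher median in 3 of the 4 libraries. The absolute difference had a median of 11.2 percentage points in WT mESCs, 19.7 in Atxn7l3-/- mESCs, 4.94 in WT MEFs and 29.2 in Atxn7l3-/- MEFs. The shorter body had a median of 13.4% and the longer one 6.15% in WT mESCs, 38.5% and 21.3% in Atxn7l3-/- mESCs, and 52.1% and 29.5% in Atxn7l3-/- MEFs, while both medians were 0% in WT MEFs. A covered share depends on the length of the body as well as on H2Bub1.

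Among pairs with Pol II on both sides in Atxn7l3-/- cells and bodies of at least 5000 bp, those with the most uneven Atxn7l3-/- coverage had nearly all H2Bub1 in one direction. At Gm45902/Cdnf the minus-strand gene was covered over 28.0%, 100%, 22.0% and 100% in WT mESCs, Atxn7l3-/- mESCs, WT MEFs and Atxn7l3-/- MEFs, and Cdnf, a neurotrophic factor gene, over 0%, 2.70%, 0% and 0%. At Park7/Tnfrsf9, Park7, which encodes the redox protein DJ-1, was covered over 59.3%, 100%, 1.81% and 72.9%, and Tnfrsf9, a receptor of activated T cells, over 0%, 3.73%, 0% and 3.61%. At Hjurp/Trpm8 the centromeric histone chaperone gene Hjurp had 82.9%, 90.7%, 34.9% and 34.3%, and the cold channel gene Trpm8, with a body of 111633 bp, had 0%, 0.719%, 0% and 0%.

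Loss of the adaptor went with higher H2Bub1 coverage on many sides. In mESCs 749 of 1468 sides rose by at least 10 points (51.0% [48.4 to 53.6], against 32.7% of all autosomal genes) and 52 fell by as much (3.54% [2.66 to 4.62], against 2.96%). In MEFs 1104 rose (75.2% [72.9 to 77.4], against 46.2%) and 0 fell (against 0.115%). The median difference of a side lay in the interval from 9.37 to 11.8 points in mESCs and was 30.0 points [27.8 to 31.9] in MEFs, against 1.11 and 4.8 over all genes. The shares were not adjusted for the higher coverage of paired genes in WT.

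Both sides rose at 222 pairs in mESCs (30.2% [26.9 to 33.7]) and 433 in MEFs (59.0% [55.3 to 62.6]), 1 side rose at 305 and 238, and none at 207 and 63. Both sides fell at 6 pairs in mESCs, and one rose while the other fell at 19, against 0 of each in MEFs. Split by which gene rose, the opposite changes in mESCs were at 10 and 9 of the 734 divergent pairs. Among neighbours they were at 8 and 7 of 403 wider divergent, 27 and 13 of 596 same-strand and 22 and 20 of 578 convergent pairs. Of the pairs that moved on both sides, 228 of 247 moved in the same direction in mESCs (92.3% [88.2 to 95.3]) and 433 of 433 in MEFs. Sides that rose far outnumber sides that fell in both cell types, which fixes much of this shared direction. In mESCs the plus-strand gene rose at 56.8% [51.7 to 61.7] of the pairs whose minus-strand gene rose and at 39.7% [34.4 to 45.0] of the others, and in MEFs at 79.3% [75.7 to 82.6] and 66.5% [59.3 to 73.2].

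The sizes of the 2 changes were only loosely related. Across pairs, Spearman's rho of the 2 differences was 0.23 in mESCs and 0.19 in MEFs (n = 734 pairs of the same libraries, as a description). It was 0.26 and 0.29 over the wider divergent pairs, 0.22 and 0.32 over same-strand neighbours and 0.18 and 0.24 over convergent ones. Both genes rose at 20.6%, 28.4% and 24.2% of those neighbours in mESCs and at 32.8%, 46.6% and 41.0% in MEFs. The rho of the divergent pairs thus lay among those of the neighbours in mESCs and under them in MEFs.

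**Figure D3:**
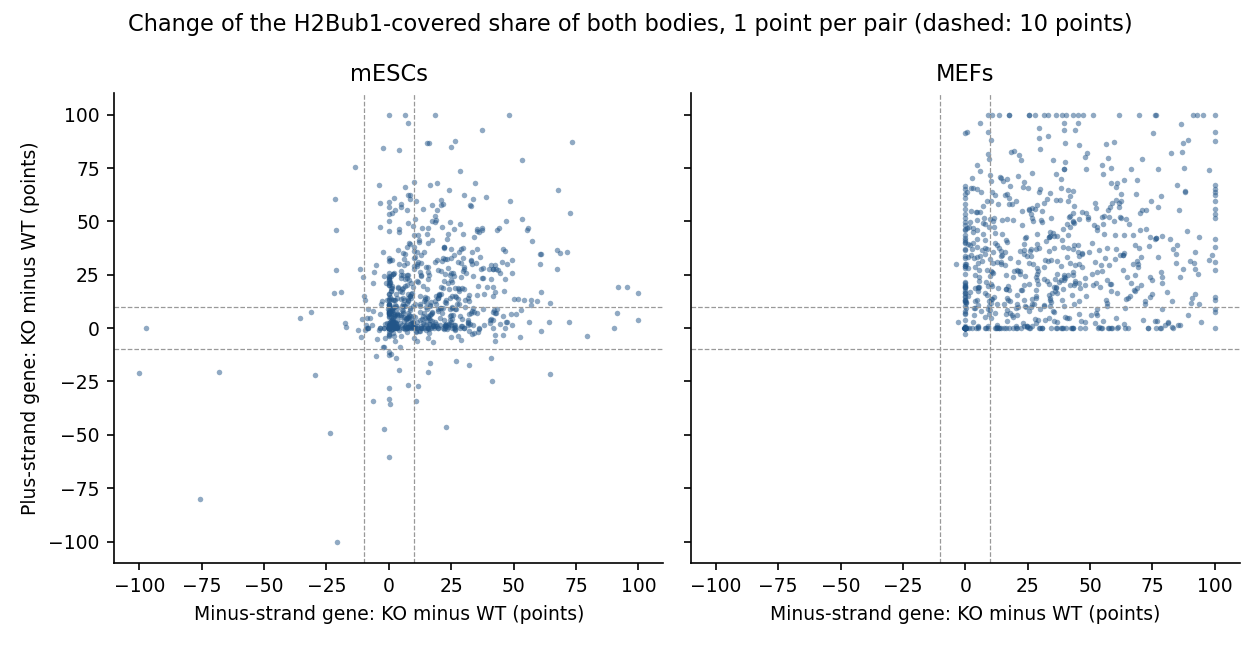
Difference in H2Bub1 coverage of the gene body, KO (Atxn7l3-/-) minus WT in percentage points, of the plus-strand gene against that of the minus-strand gene, 1 point per pair, in mESCs and MEFs. Many points of MEFs lie at the upper right (both sides rose by at least 10 points at 433 of 734 pairs), and those of mESCs lie closer to 0 (222 pairs) with 19 opposite pairs.

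The 3 largest opposite H2Bub1 changes in mESCs paired genes of unlike roles. At Cbx5/Hnrnpa1, a heterochromatin protein and an RNA-binding protein, Cbx5 was covered over 8.61% in WT and 50% in Atxn7l3-/- mESCs, and Hnrnpa1 over 89.6% and 65.0%. In MEFs the values were 0.621% and 83.2% for Cbx5 and 18.1% and 100% for Hnrnpa1. At Lrrc46/Mrpl10, Lrrc46 had 28.3% and 6.66% in mESCs, and Mrpl10, a gene of the mitochondrial ribosome, had 39.4% and 100%. At Dgcr2/Tssk2, Dgcr2 had 25.7% and 48.6%, while Tssk2, a testis kinase gene of 1388 bp, had 46.5% and 0%. None of the 19 opposite pairs kept that pattern when a change had to reach 25 points.

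H2Bub1 rose with and without Pol II in mESCs, and mainly with it in MEFs. In mESCs the median difference was 11 points at sides with Pol II in both genotypes, 11.2 at sides with it in WT only, 16.6 at sides with it in Atxn7l3-/- only and 7.86 at sides without it. In MEFs the medians were 33.8, 0, 12.8 and 0 points, over 1315, 36, 18 and 99 sides. Sides that lost the Pol II call in mESCs rose in H2Bub1 at 52.8% [45.9 to 59.5] and sides that kept it at 51.9% [48.0 to 55.8].

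Where Pol II was called on 1 side only, H2Bub1 was more often on that side. In WT mESCs, the side with Pol II had a median of 13.4% and the other side 6.96%, with the Pol II side higher at 74 pairs and lower at 40 of 117. In Atxn7l3-/- mESCs the medians were 34.3% and 22.1%, with 77 higher and 44 lower of 125. In WT MEFs they were 3.98% and 0%, with 17 higher, 1 lower and 11 equal of 29, and in Atxn7l3-/- MEFs 35.7% and 0%, with 45 higher and 6 lower of 51. Over the first 2000 bp of the bodies the medians were 38.3% and 4.70% in WT mESCs, 0% on either side in WT MEFs, and 97.9% and 0% in Atxn7l3-/- MEFs. In Atxn7l3-/- mESCs they were 100% and 87.7%, so there the mark reached into the first part of most genes without a Pol II call too.

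**Figure D4:**
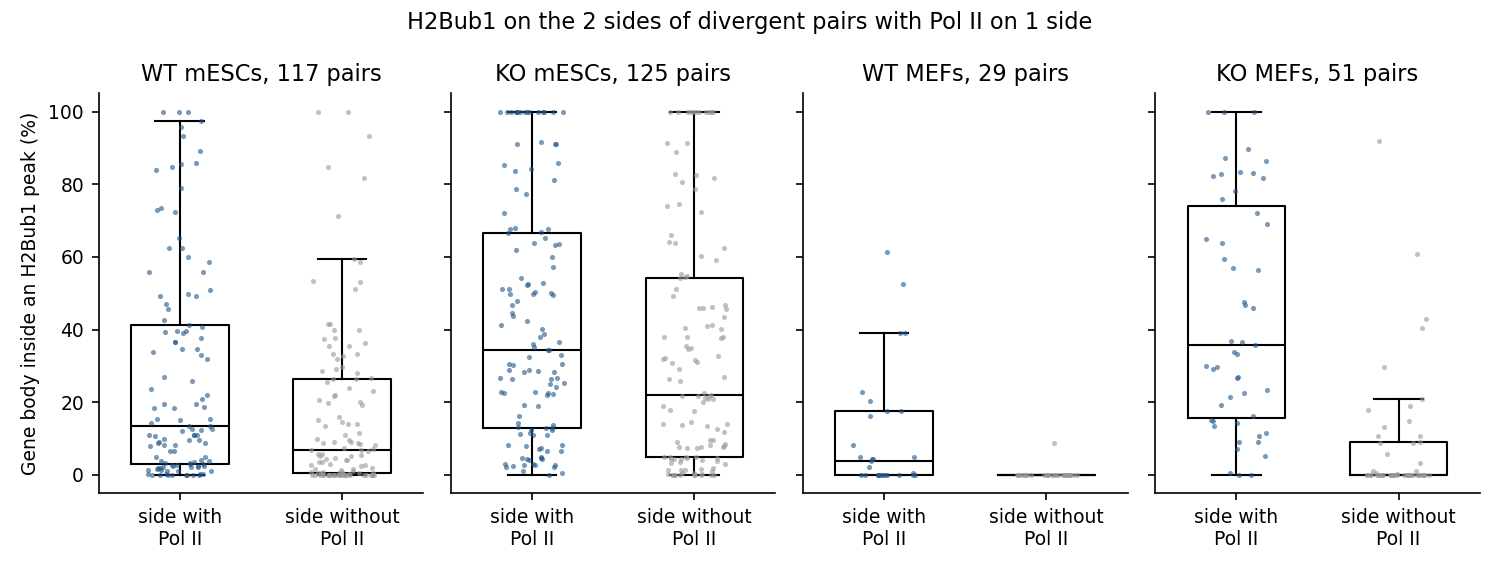
H2Bub1 coverage of the gene body (%) on the side with and on the side without a Pol II call, at pairs with Pol II on 1 side, 1 panel per library (117, 125, 29 and 51 pairs); boxes show medians and quartiles and points single pairs. The side with Pol II had the higher median in each library (13.4% against 6.96% in WT mESCs, 35.7% against 0% in KO MEFs).

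Some housekeeping systems had a larger share of genes in divergent pairs than all autosomal genes, and others did not stand apart. Of 67 histone cluster genes (Hist symbols) 27 were in a pair (40.3%), of 167 genes of DNA replication and repair 48 (28.7%), of 17 genes of the SAGA complex 4 (23.5%), of 201 genes of RNA polymerases and RNA processing 47 (23.4%), of 78 genes of the mitochondrial ribosome 18 (23.1%) and of 104 genes of the respiratory chain 23 (22.1%), against 6.96% of all autosomal genes. Chaperones (15.7%), cell division (15.2%), transfer RNA synthetases (14.3%) and the proteasome (14.3%) followed, then genes with Tmem, Fam, Ccdc or Lrrc symbols (12.5%), transfer and ribosomal RNA modification (11.5%), the ubiquitin system (10.1%), the cytosolic ribosome (10.1% [4.47 to 19.0]) and H2B ubiquitylation (1 of 10 genes). The 95% intervals of the SAGA, synthetase, proteasome, cytosolic ribosome, RNA modification and H2B ubiquitylation shares include 6.96%. So do those of zinc finger genes (5.71% [3.77 to 8.26]), collagens (2 of 42 genes) and solute carriers (4.75% [2.79 to 7.49]).

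**Figure D5:**
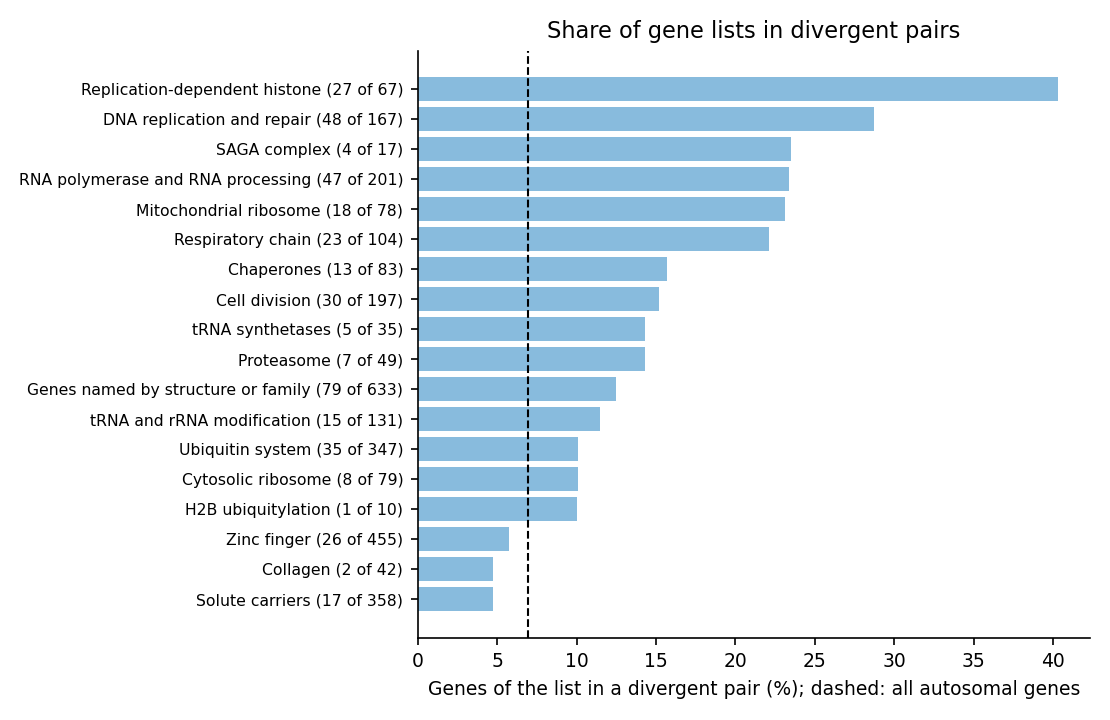
Share of the genes of each list that belong to a divergent pair (%, bars, with the counts beside each name); the dashed line marks all autosomal protein-coding genes (6.96%). Histone genes (40.3%) lie at the top and solute carriers (4.75%) at the bottom.

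Histone pairs had high Pol II folds, and 7 of the 14 fell in H2Bub1 on a side in mESCs. Of the 14 pairs, 13 join 2 core histone genes, mostly an H2A and an H2B gene, whose messages are made in S phase and end in a stem-loop. A Pol II peak was found at 12, 12, 11 and 11 of the 14 pairs in the 4 libraries, with a median fold of 22.0 in WT mESCs, 16.5 in Atxn7l3-/- mESCs, 27.8 in WT MEFs and 17.7 in Atxn7l3-/- MEFs. At Hist1h2ag/Hist1h2bj, whose gap with 5 CCAAT boxes is printed above, the fold was 28.1, 15.0, 36.7 and 14.6. The highest Atxn7l3-/- values of the 14 pairs, 18.8 in mESCs and 23.1 in MEFs, were under the WT medians of the same cells.

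H2Bub1 was found in 14, 5, 3 and 14 of the 28 histone bodies in WT mESCs, Atxn7l3-/- mESCs, WT MEFs and Atxn7l3-/- MEFs, against 80.4%, 92.2%, 46.9% and 88.8% of all paired bodies. In mESCs 0 of the 14 pairs rose on a side and 7 fell on at least 1 side, against 527 and 46 of all 734 divergent pairs (71.8% and 6.27%), and 4 of the 6 pairs of the whole set that fell on both sides were histone pairs. Hist1h2ag had 75.7% in WT and 0% in Atxn7l3-/- mESCs, Hist1h2bj 80.1% and 0%, and neither had H2Bub1 in MEFs. Hist1h2ak and Hist1h2bn had 100% and 21% in WT mESCs, 0% in Atxn7l3-/- mESCs and WT MEFs, and 95.2% and 100% in Atxn7l3-/- MEFs. The other pairs that fell on both sides, named after their values were seen, were P3h4/Fkbp10, which act in collagen modification, and Il11/Tmem190. In MEFs 5 of the 14 histone pairs rose on both sides, against 59.0% of all divergent pairs. The bodies are short (485 bp for Hist1h2ag), so 1 peak fills or empties them. Many copies are nearly identical, so reads that fit several copies can make each value uncertain, and how such reads were handled is unknown. Neighbouring pairs such as Hist1h2ae/Hist1h2bg and Hist1h2bf/Hist1h2ad list the same folds in all 4 libraries (22.9, 14.7, 27.8 and 19.9). Their windows may hold the same peak, which the median folds would then count for each pair, and this was not tested.

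Of the 8 pairs with a gene of the cytosolic ribosome, 7, 7, 8 and 8 had a Pol II peak, against 67.6%, 61.3%, 94.0% and 94.3% of all divergent pairs, and the ribosomal genes had a median H2Bub1 coverage of 100%, 100%, 83.0% and 100%. At Rnf151/Rps2 the fold was 5.67, 3.21, 35.8 and 25.9, and Rps2 was covered over 100%, 100%, 62.9% and 100%. At Rpl9/Lias the ribosomal gene Rpl9 had 100%, 100%, 96.3% and 100%, while Lias, which encodes lipoic acid synthase, had 1.36%, 8.93%, 0% and 28.9%. Both sides rose at 0 of the 8 pairs in mESCs and at 2 in MEFs, against 222 and 433 of all 734 divergent pairs. Genes at full coverage in WT cannot rise on this scale, and the part of this in the counts was not tested.

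H2Bub1 lay over the promoter of most mitochondrial ribosome and respiratory chain pairs in Atxn7l3-/- cells, as it did at most divergent pairs. A single H2Bub1 peak covered both TSSs at 8, 16, 0 and 15 of the 18 mitochondrial ribosome pairs and at 12, 22, 3 and 20 of the 23 respiratory chain pairs, against 41.1%, 80.7%, 7.90% and 78.3% of all divergent pairs. At Ska3/Mrpl57, with the palindromic ZBTB33-type motif in its gap, the Pol II fold was 5.32, 5.96, 26.0 and 15.2. Mrpl57 was covered over 20.9%, 36.8%, 13.5% and 100%, and Ska3, of the outer kinetochore, over 47.7%, 56.5%, 1.57% and 58.1%. At Atp5h/Kctd2 the ATP synthase gene Atp5h had 71.4%, 100%, 29.2% and 100%, and Kctd2 had 40.8%, 89.8%, 0% and 79.3%. Mrps18b/Ppp1r10 had the highest mean WT fold of the mitochondrial ribosome list, with 12, 13.2, 37.7 and 23.5.

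Pol II on both sides was called at 51.5% of all divergent pairs in WT mESCs and at 44.1% in Atxn7l3-/- mESCs. Counts of some lists follow, and no difference between lists was tested. The counts were 18 and 8 of 30 pairs for cell division, 33 and 26 of 49 for DNA replication and repair, and 4 and 1 of 5 for synthetases, while RNA processing pairs had 32 and 32 of 47. Cell division pairs with a peak anywhere in the window numbered 21 and 18 of 30, against 67.6% and 61.3% of all divergent pairs. In MEFs the counts with Pol II on both sides were 30 and 28, 46 and 47, 5 and 5, and 46 and 45, against 90.1% and 87.3% of all divergent pairs. Other lists had nearer counts in mESCs, with 11 and 10 of 18 pairs for the mitochondrial ribosome. The respiratory chain had 12 and 10 of 23 and the cytosolic ribosome 7 and 7 of 8. The synthetase pair Orc3/Rars2 had a fold of 3.87 in WT mESCs, no peak in Atxn7l3-/- mESCs, and 21.7 and 20.5 in MEFs. The WT mESC list is the longer one, and the share of these counts that rests on it was not tested list by list. Srsf7/Ttc39d, with a splicing factor gene on the minus strand, had the highest mean WT fold of the RNA processing list, with folds of 13.6, 23.2, 44.0 and 29.4.

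Of the 17 genes of the SAGA complex, a coactivator that carries the same deubiquitylation module, 4 were in divergent pairs. Taf5l/Urb2 had Pol II folds of 4.49, 7.07, 26.6 and 23.1, and Rad17/Taf9 5.30, 4.67, 10.9 and 11.5. Tada2b/Ccdc96 and Tada3/Arpc4 had no peak in WT mESCs, 4.26 and 3.75 in Atxn7l3-/- mESCs, and 6.04 to 14.0 in MEFs. Taf9 was covered by H2Bub1 over 55.2%, 61.7%, 63.9% and 100%. The ligase gene Rnf40, in the pair Ccdc189/Rnf40 whose gap is printed above, had 78.9%, 79.4%, 33.6% and 45.7%, and the pair had no Pol II peak in mESCs and folds of 6.22 and 9.31 in MEFs.

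Of 30 gene pairs listed as textbook examples of divergent or neighbouring transcription, 12 met the rule, 14 overlapped by their gene records, 3 lay on the same strand and 1 had TSSs over 1000 bp apart. Mcm4/Prkdc, of the replicative helicase and the DNA-dependent protein kinase, had Pol II on both sides in all 4 libraries, with folds of 7.09, 6.92, 19.5 and 21.4. Mcm4 was covered over 32.6%, 23.3%, 0% and 12.6%, and Prkdc, with a body of 204370 bp, over 0.332%, 1.72%, 0% and 1.37%. Gart/Son, of purine synthesis and of splicing, had folds of 6.81, 8.88, 23.7 and 28.0, and a single H2Bub1 peak covered both TSSs in all libraries but WT MEFs.

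The mitochondrial pairs among them, printed above, differed between cell types. Mrps12/Sars2 had a fold of 4.68 in WT mESCs and 6.57 in Atxn7l3-/- MEFs, also a peak in WT MEFs, and none in Atxn7l3-/- mESCs. Mrps12 was covered by H2Bub1 over 20.6%, 100%, 0% and 100%, and Sars2 over 49.2%, 45.3%, 0% and 8.85%, so the shorter gene filled up in both Atxn7l3-/- libraries and the longer one did not. Hadha/Hadhb, which encode the 2 subunits of the mitochondrial trifunctional protein, had folds of 3.72, 3.09, 7.67 and 9.07. Hadha was covered over 5.75%, 5.64%, 8.88% and 32.4%, and Hadhb over 2.89%, 26.9%, 8.30% and 42.9%, so in mESCs Hadhb rose and its partner did not.

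Psmb1/Tbp, a proteasome subunit and the TATA-binding protein, had a fold of 3.16 in WT mESCs, no peak in Atxn7l3-/- mESCs, and 10.4 and 9.0 in MEFs. Both bodies rose in H2Bub1. Psmb1 had 9.03%, 60.6%, 32.9% and 79.6%, and Tbp had 8.76%, 22.5%, 9.33% and 63.9%. Acd/Pard6a, of telomeres and cell polarity, had a fold of 5.07 in WT mESCs, no peak in Atxn7l3-/- mESCs, and 7.59 and 7.52 in MEFs, and Pard6a rose from 72.2% to 100% and from 0% to 100%. Wrn/Purg, with the Werner helicase, had folds of 5.30, 4.61, 15.4 and 14.7. Pdcd10/Serpini1 had 4.73, 5.72, 6.71 and 10.3, and Serpini1, which encodes neuroserpin, had no H2Bub1 in any library while Pdcd10 had 2.08%, 9.19%, 26.9% and 67.2%.

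Col4a4/Col4a3, the basement membrane collagens of kidney and other specialized tissues, had neither a Pol II peak nor H2Bub1 in any of the 8 libraries, and belongs to the 28 pairs without Pol II. The chaperonin pair Cct5/Fam173b, whose gap holds the NRF1 palindrome, had folds of 3.85, 5.91, 27.6 and 13.5. Cct5 was covered over 62.0%, 71.4%, 53.4% and 94.6%, and Fam173b over 5.68%, 9.11%, 8.97% and 46.7%.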

How the data were processed

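The authors sequenced single-end ChIP-seq libraries, and the submitters' processing notes name bcl2fastq 2.17.1.14, Bowtie 1.0.0, MACS2 2.1.1.20160309 and the build mm10. Their methods place normalization before peak calling without saying how it entered the calls, so its effect is unknown. Deeper libraries yield longer lists. The deposited lists are narrow peaks for Pol II and broad peaks for H2Bub1, called per library. As deposited, each peak has a fold, the linear ratio of its pileup to the local background. The authors also deposited a -log10 p-value and a -log10 q-value per peak. Inputs and serine 2 phosphorylated Pol II were not analysed here, and 0 columns of per-sample values were left unused.

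Peaks were set against GENCODE M21. A gene body ran from the TSS to the end of the gene record, and 1 bp of overlap made a call. A change in H2Bub1 was at least 10 percentage points of the body. Percentages have exact Clopper-Pearson and medians exact binomial 95% intervals. No test was run, because each group had 1 library. The functions for side calls and covered shares were tested on simulated peaks, where all 666 simulated pairs were recovered. Changes between genotypes and single peaks over both TSSs were not checked this way. Python 3.11.15 was used with scipy 1.17.1, numpy 2.4.6, matplotlib 3.10.9 and pandas 2.3.3.

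The members and lists were chosen with earlier results of these data known, and the histone and collagen lists were narrowed to Hist symbols and collagen chains after their values were seen. Pairs are named by rule: textbook pairs, the top 2 of each list by mean WT Pol II fold, and the 3 highest in each cell type by Pol II fold without a peak in the other genotype, by uneven Atxn7l3-/- H2Bub1 (bodies of at least 5000 bp with Pol II on both sides) and by opposite H2Bub1 changes. Not all are printed. Alternatives were equal numbers of peaks in WT and Atxn7l3-/-, a -log10 q from 3 up, TSSs at most 500 bp apart, no histone pairs, genes of 1 pair that overlap no other gene, a side window of 300 bp, H2Bub1 peaks less than 1000 bp apart joined, the first 2000 bp of the body, a change of at least 25 points, and the 300 bp promoter of each gene.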

Additional observations from a re-analysis of the deposited data

Results flagged for a closer look

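The values below were singled out because both cell types moved in opposite directions under the same contrast, Atxn7l3-/- minus WT, with 1 library per group. The difference between the cell types was not tested. The share of pairs with a Pol II peak differed by -6.27 percentage points in mESCs and 0.272 in MEFs (690 against 692 pairs). With equal numbers of peaks both cell types had the higher share in Atxn7l3-/-, with 59.0% in WT and 61.3% in Atxn7l3-/- mESCs and 93.9% and 94.3% in MEFs. H2Bub1 coverage of Son, which encodes a splicing cofactor, differed by -16.3 points in mESCs and 31.2 in MEFs. Ppp1r10, which encodes a regulator of protein phosphatase 1, had -34.1 and 55.5 points. Hnrnpa1 had -24.6 and 81.9 points, and Surf4, which encodes a cargo receptor of the endoplasmic reticulum, had -11.2 and 29.9 points.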

How the results depend on the processing

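Of the 168 comparisons of a value with an alternative, 141 stayed within the 95% interval of the reported value, or within 1.5 times for a count, and 27 did not. With equal numbers of peaks, WT mESCs had a Pol II peak at 59.0% of pairs and on both sides at 45.6%. A call on both sides in WT only or in Atxn7l3-/- only then made up 5.99% and 5.72% of mESC pairs, and the median H2Bub1 coverage in Atxn7l3-/- MEFs was 36.8%. With a -log10 q of at least 3 the medians were 0% in WT mESCs, 12.9% in Atxn7l3-/- mESCs and 32.6% in Atxn7l3-/- MEFs. A single H2Bub1 peak then covered both TSSs at 21.9%, 74.3% and 0.545% of pairs in WT mESCs, Atxn7l3-/- mESCs and WT MEFs, and in mESCs 25.9% of pairs rose on both sides and 0.817% moved in opposite directions. With TSSs at most 500 bp apart, a single peak covered both TSSs at 83.5% of pairs in Atxn7l3-/- mESCs, and Pol II was on both sides at 92.6% and 90.2% in WT and Atxn7l3-/- MEFs. Genes of 1 pair that overlap no other gene had median coverages of 7.00% and 25.2% in WT and Atxn7l3-/- mESCs. Over the first 2000 bp of the body the medians were 23.9% in WT mESCs and 100% in both Atxn7l3-/- libraries, both sides rose at 46.6% (mESCs) and 65.7% (MEFs) of pairs, and opposite changes made up 1.36% in mESCs. With a change of at least 25 points both sides rose at 10.2% and 34.5%, and opposite changes made up 0% in mESCs. Apart from the subsets and stricter limits themselves, the cause was not tested.

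Read depth is unknown, so a missing peak does not show a lack of Pol II or H2Bub1. A side call cannot tell which of 2 close TSSs Pol II uses, and a covered share depends on body length. No paired analysis was possible because each group had 1 library.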

Other observations

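Over all divergent pairs, a Pol II peak was found at 67.6% and 61.3% in WT and Atxn7l3-/- mESCs and at 94.0% and 94.3% in MEFs, and H2Bub1 rose on both sides at 30.2% in mESCs and 59.0% in MEFs. Of the 23 pairs with a zinc finger gene, 11 and 10 had a Pol II peak in WT and Atxn7l3-/- mESCs and 22 and 22 in MEFs. The zinc finger genes of these pairs had median H2Bub1 coverages of 8.32% and 35.5% in mESCs and 7.48% and 66.0% in MEFs, and both sides rose at 8 pairs in mESCs and 18 in MEFs. Of the 16 pairs with a solute carrier gene, 9 and 7 had a Pol II peak in mESCs and 15 and 15 in MEFs. Zbtb25/Zbtb1, 2 transcription factor genes, had Pol II folds of 6.27, 7.34, 22.7 and 18.3 in WT mESCs, Atxn7l3-/- mESCs, WT MEFs and Atxn7l3-/- MEFs. A single H2Bub1 peak covered both of its TSSs in all 4 H2Bub1 libraries.

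Genes named for a structural feature or family (Tmem, Fam, Ccdc and Lrrc symbols) made up the largest of the lists, with 76 pairs. Of these, 49 and 45 had a Pol II peak in mESCs and 68 and 69 in MEFs, against 67.6%, 61.3%, 94.0% and 94.3% of all divergent pairs. At Tmem79/Smg5 (Smg5 acts in nonsense-mediated decay) the folds were 13.4, 16.7, 33.0 and 29.6, and Smg5 had H2Bub1 coverages of 87.8%, 81.8%, 14.5% and 34.7%. In Atxn7l3-/- cells, 216 pairs had Pol II on neither side in mESCs and on both sides in MEFs, and 1 pair had the reverse.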
